A study of Saccharomyces cerevisiae with 12 samples.

Results

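The genes described here are 10 signaling components of the high-osmolarity glycerol (Hog1) pathway of the budding yeast Saccharomyces cerevisiae: the sensors SLN1 and SHO1, the response regulator SSK1, the kinases SSK2, PBS2 and HOG1, the tyrosine phosphatases PTP2 and PTP3, and the transcription factors SKO1 and HOT1. They were chosen by name for their role in the pathway, and they are 10 of the 5967 transcripts used here. All 10 passed the filter on low values in every comparison. RNA sequencing of 12 libraries, 2 from each of 6 groups, gave the transcript levels. The mutant, labelled edc3∆lsm4∆C, was grown with 100 mM sodium perchlorate throughout or left untreated, and the wild type (WT), BY4741, a haploid laboratory strain, was grown in the same 2 ways. The remaining WT cells met a shock wave (5.6 Mach) before growth, or were left unshocked. All cultures were grown in medium without uracil at 30 °C and harvested at an optical density (OD600) of 0.4 to 0.5, so every treated sample is from cells growing in or after the treatment and none is from its first minutes. EDC3 and the C-terminal region of LSM4 encode parts of the machinery that assembles P-bodies, cytoplasmic granules of untranslated mRNA.

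Hog1 is the mitogen-activated protein (MAP) kinase of the yeast osmotic stress response. In the Sln1 branch, the membrane histidine kinase Sln1 passes phosphate through Ypd1 to Ssk1 at normal osmolarity, and on osmotic shock dephosphorylated Ssk1 activates the kinases Ssk2 and Ssk22. In the Sho1 branch, the membrane protein Sho1 works with Opy2, Msb2, Hkr1, Ste20, Ste50 and the kinase Ste11. Both branches converge on the kinase Pbs2, which phosphorylates Hog1, and the phosphatases Ptp2 and Ptp3 remove that phosphate. Active Hog1 acts on transcription through Sko1, Hot1 and other factors, and its targets include genes for glycerol production and uptake. The pathway is switched by phosphorylation, which was not measured here: the values below are transcript levels.

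Totals ran from 14110933 to 18363356 reads per library, and each of the 10 genes had 345 to 4265 reads in each library. Counts of replicates differed by more than sampling noise (chi-square per degree of freedom 16.6 to 37.6), so no library was a copy of another. The labels do not say whether replicates were separate cultures, so p-values measure only how much these samples vary, and that variation may be technical. EDC3 had 1 to 4 reads in the 4 mutant libraries, against 745 to 1365 in the 8 WT libraries, while LSM4, which keeps most of its sequence and so checks nothing, had 696 to 710 in the mutant and 509 to 1100 in WT. The mutant libraries are also labelled BY4741, an a-type strain, yet the 5 a-cell markers (MFA1, MFA2, STE2, STE6 and BAR1) summed to 432 to 528 reads in the mutant and 9235 to 44411 in WT, and all 5 were lower in every mutant library. Of the 4 alpha-cell markers, MF(ALPHA)1 had 6140 to 22817 reads in the mutant against 4 to 111 in WT. STE3 had 2684 to 4464 against 95 to 278. Pooled over all conditions, the read ranges of MF(ALPHA)2 (mutant 154 to 4284, WT 1 to 158) and SAG1 overlapped between strains. When strains were compared under the same treatment, both genes had separate groups. MF(ALPHA)2 was higher in the mutant both times (log2 fold change 8.73 without perchlorate, 5.02 with it). SAG1 was higher without perchlorate (0.95) and lower with it (-0.56). LEU2 and MET17, which BY4741 lacks, had at least 5366 and 8873 reads in each mutant library and at most 23 and 52 in each WT library. HIS3 and URA3, also auxotrophy genes of BY4741, had reads in both strains. HIS3 had 1225 to 1867 reads in the mutant and 880 to 1346 in WT, and URA3 6739 to 8675 and 2071 to 4198. The WT libraries thus also hold reads of genes from this set, and the reason was not tested. In the comparisons of strains, the deletion alleles and these other strain differences cannot be told apart.

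Normalized reads, the authors' counts scaled within each comparison's table, were compared between groups as log2 of the value plus 1 with limma, and a gene was called changed at a Benjamini-Hochberg adjusted p under 0.05. This scale slightly understates changes of low genes. Over 5 comparisons the 10 genes gave 11 calls in 50 tests. Of all transcripts tested, 22.5% (between untreated strains) to 35.4% (after shock) were called per comparison. Of the 12 libraries, 8 enter 2 comparisons each, so the 50 tests are not independent. None of the 10 changed 2-fold in any comparison; the largest difference was that of PTP3 after shock, which was 1.55-fold. SHO1, the membrane sensor, was called in 3 comparisons, each of the genes SSK1, SSK2, PBS2, HOG1, PTP2, PTP3, SKO1 and HOT1 in 1, and SLN1 in 0.

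**Figure D1:**
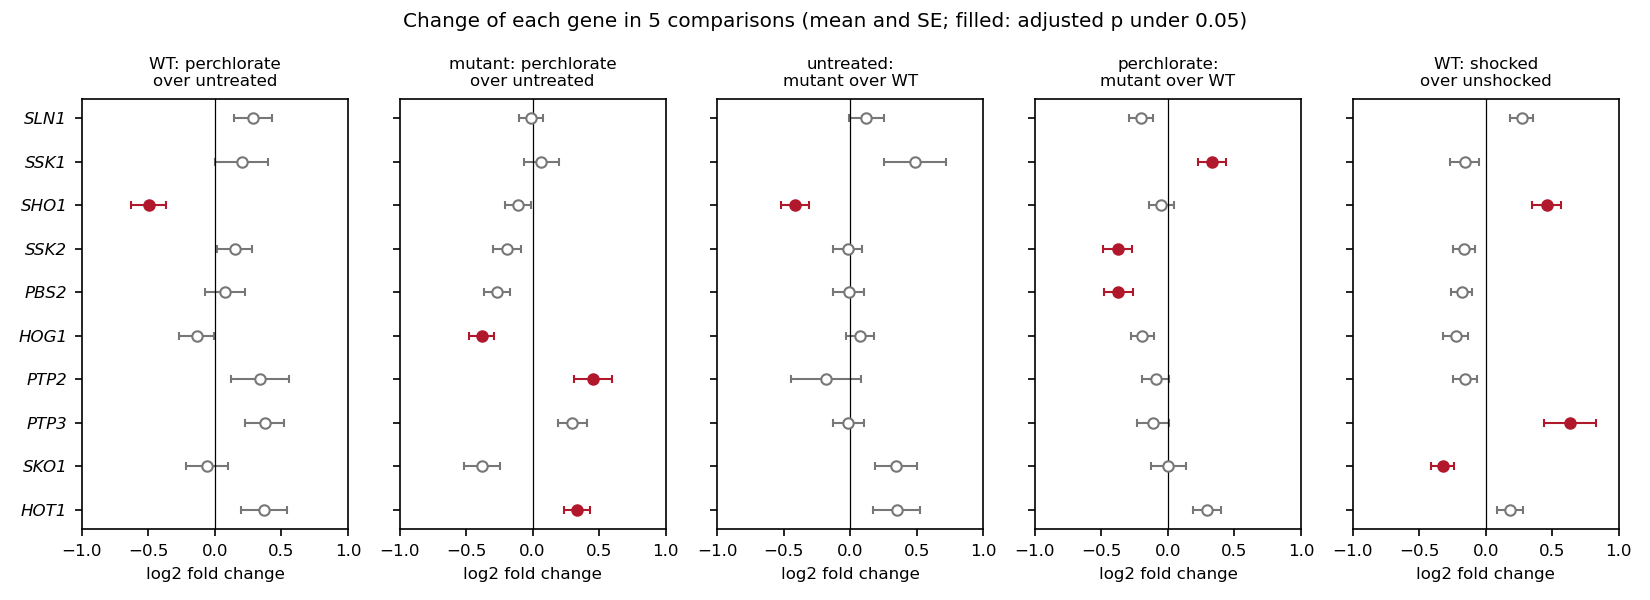
Log2 fold change (horizontal axis) of each of the 10 genes (rows) in 5 comparisons (panels), with points for the mean and bars for the SE from limma, 2 libraries per group. Filled points passed an adjusted p under 0.05: there are 11, and the largest is PTP3 in shocked WT at 0.63.

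Promoter windows of 300 bases, from 250 before to 50 after the first coding base, were read from the RefSeq genome R64, because Hog1 acts on transcription. Of the transcripts used here, all 5941 that carry a RefSeq identifier are in its annotation with the same version, but the build the authors used is not given in the sources used here. In that annotation each of the 10 genes is an uninterrupted coding sequence that overlaps no other gene and has no near-identical copy. HOG1 (YLR113W) lies at chrXII:371620-372927, PBS2 (YJL128C) at chrX:178097-180103 and SSK2 (YNR031C) at chrXIV:680694-685433. SLN1 (YIL147C) lies at chrIX:69791-73453, SSK1 (YLR006C) at chrXII:161755-163893 and SHO1 (YER118C) at chrV:397952-399055. PTP2 (YOR208W) lies at chrXV:733925-736177, PTP3 (YER075C) at chrV:308413-311199, SKO1 (YNL167C) at chrXIV:319416-321359 and HOT1 (YMR172W) at chrXIII:605981-608140. Shown are the windows of PTP2 and PTP3, the phosphatase pair, of SHO1, which was called most often, and, for contrast, of STL1, the glycerol transporter gene that was the most changed target of the pathway under perchlorate. PTP2 is at chrXV:733675-733974 on the plus strand, PTP3 at chrV:311150-311449 on the minus strand, SHO1 at chrV:399006-399305 on the minus strand and STL1 at chrIV:1507755-1508054 on the plus strand. They are written 5′ to 3′ on the gene's strand, and capitals mark the stress response element, the site of the stress factors Msn2 and Msn4 (AGGGG, or CCCCT where it lies on the other strand).
PTP2 promoter: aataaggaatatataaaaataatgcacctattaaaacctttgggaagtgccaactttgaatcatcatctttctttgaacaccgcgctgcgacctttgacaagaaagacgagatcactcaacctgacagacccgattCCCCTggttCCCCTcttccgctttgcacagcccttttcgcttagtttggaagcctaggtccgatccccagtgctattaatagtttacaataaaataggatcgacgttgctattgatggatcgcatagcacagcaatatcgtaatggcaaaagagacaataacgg
PTP3 promoter: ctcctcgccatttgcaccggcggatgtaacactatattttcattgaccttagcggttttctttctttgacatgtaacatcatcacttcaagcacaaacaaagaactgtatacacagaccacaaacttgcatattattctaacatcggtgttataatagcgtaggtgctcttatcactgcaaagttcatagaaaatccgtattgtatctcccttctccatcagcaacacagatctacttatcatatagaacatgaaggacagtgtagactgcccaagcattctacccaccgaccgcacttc
SHO1 promoter: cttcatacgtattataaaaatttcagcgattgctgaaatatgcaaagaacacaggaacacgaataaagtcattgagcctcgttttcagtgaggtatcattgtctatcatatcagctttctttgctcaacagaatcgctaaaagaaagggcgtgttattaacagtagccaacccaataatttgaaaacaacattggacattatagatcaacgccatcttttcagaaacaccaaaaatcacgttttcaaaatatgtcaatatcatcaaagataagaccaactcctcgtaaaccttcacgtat
STL1 promoter: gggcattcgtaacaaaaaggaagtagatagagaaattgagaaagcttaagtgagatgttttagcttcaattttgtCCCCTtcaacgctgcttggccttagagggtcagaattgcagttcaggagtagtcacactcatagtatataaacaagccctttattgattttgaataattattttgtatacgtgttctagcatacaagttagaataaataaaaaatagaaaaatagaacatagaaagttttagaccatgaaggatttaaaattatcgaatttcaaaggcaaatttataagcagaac

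On both strands, the stress response element AGGGG was found in the windows of 2 of the 10 genes: PTP2 holds it at 114 to 110 and again at 105 to 101 bases before the start, and SKO1 at 221 to 217. It was found in 21.6% of the 6001 windows of this length over the genome and in 6 of 13 Hog1 target genes. The core of the Sko1 site, TGACG, was found in PBS2 alone among the 10, at 96 to 92 bases before the start, and in 26.2% of all windows. The full site TGACGTCA, which contains the core, was in 0 of the 10, in 1 of the 13 targets (GLR1) and in 0.133% of all windows. These are matches of letters in a window, not measured binding.

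In WT cells grown with perchlorate, 1 of the 10 genes changed: the Sho1-branch sensor SHO1 was lower. Over all transcripts tested, 26.5% were called in this comparison. SHO1 had 1110.0 and 1128 normalized reads in the perchlorate-treated WT libraries, against 1609 and 1550.3 in the untreated WT libraries, a log2 fold change of -0.50 ± 0.13 (SE; 1.41-fold lower, limma adjusted p = 0.0211). Both treated libraries lay below both untreated ones.

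In the Sln1 branch, the sensor SLN1 had 1963 and 1914 normalized reads in the perchlorate-treated WT libraries, against 1439 and 1749.7 in the untreated WT libraries (log2 fold change 0.29 ± 0.14, adjusted p = 0.161). The groups were separate, but the difference did not pass. The kinases of the core cascade showed small differences, with log2 fold changes of 0.15 ± 0.13 for SSK2, 0.075 ± 0.15 for PBS2 and -0.14 ± 0.13 for HOG1. HOG1 itself had 3261 and 3189.9 normalized reads in the perchlorate-treated WT libraries, against 3734 and 3372 in the untreated WT libraries, and its 95% interval of -0.43 to 0.15 includes 0. The phosphatase PTP3 had 1331 and 1127 normalized reads in the perchlorate-treated WT libraries, against 992 and 899 in the untreated WT libraries (log2 fold change 0.37 ± 0.15, adjusted p = 0.0817). Its partner PTP2 was spread more widely among the controls, with 1268 and 1139.7 normalized reads in the perchlorate-treated WT libraries, against 1232 and 732 in the untreated WT libraries (0.34 ± 0.22, adjusted p = 0.269), and the groups overlapped. Among the transcription factors, HOT1 had 563 and 621 normalized reads in the perchlorate-treated WT libraries, against 392 and 533 in the untreated WT libraries (0.37 ± 0.17, adjusted p = 0.14), and SKO1 differed by -0.061 ± 0.16.

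The groups did not overlap for 6 of the 10 genes, against 67.9% of all transcripts. The median log2 fold change of the 10 was 0.17, against 0.00075 over all transcripts, and the median size of the change was 0.25, against 0.29. The call of SHO1 ended without perchlorate-treated WT replicate 1 (adjusted p = 0.178) and without replicate 2 (0.123). With untreated WT replicate 1 left out 4 of the 10 genes were called, and with untreated WT replicate 2 left out 3.

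In the mutant grown with perchlorate, 3 of the 10 genes changed, where 33.7% of all transcripts were called: HOG1 was lower, and PTP2 and HOT1 were higher. HOG1 had 3129 and 3110.3 normalized reads in the perchlorate-treated mutant libraries, against 4270.0 and 3873 in the untreated mutant libraries, a log2 fold change of -0.38 ± 0.093 (1.30-fold lower, limma adjusted p = 0.0134). The 2 treated libraries were nearly equal, and both lay below both untreated ones. PTP2, whose protein is the mainly nuclear Hog1 phosphatase, had 1311 and 1183 normalized reads in the perchlorate-treated mutant libraries, against 1056 and 784 in the untreated mutant libraries (0.45 ± 0.14, 1.37-fold higher, adjusted p = 0.0349). HOT1, whose protein activates osmotic stress genes including STL1, had 822 and 778 normalized reads in the perchlorate-treated mutant libraries, against 655 and 615 in the untreated mutant libraries (0.33 ± 0.10, 1.26-fold higher, adjusted p = 0.0302). In both cases the groups were separate.

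3 further genes came close to the limit without passing it. PBS2, the kinase directly upstream of Hog1, had 1044 and 1008 normalized reads in the perchlorate-treated mutant libraries, against 1296 and 1175 in the untreated mutant libraries (-0.27 ± 0.10, adjusted p = 0.0622). PTP3, whose protein is the mainly cytoplasmic Hog1 phosphatase, had 1358 and 1154 normalized reads in the perchlorate-treated mutant libraries, against 1059 and 980.2 in the untreated mutant libraries (0.30 ± 0.11, adjusted p = 0.0631). SKO1, whose protein represses and activates osmotic stress genes, had 1213 and 955 normalized reads in the perchlorate-treated mutant libraries, against 1549.8 and 1268 in the untreated mutant libraries (-0.38 ± 0.14, adjusted p = 0.0621). For all 3 the groups were separate. The upstream genes had smaller differences: SLN1 differed by -0.011 ± 0.090, SSK1 by 0.067 ± 0.13, SHO1 by -0.11 ± 0.10 and SSK2 by -0.19 ± 0.11.

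The groups did not overlap for 8 of the 10 genes, against 69.9% of all transcripts, and the median log2 fold change was -0.061, against 8.0e-06. The call of HOG1 ended without untreated mutant replicate 1 (adjusted p = 0.0621), and that of PTP2 ended without treated mutant replicate 1 (0.0825) and without untreated mutant replicate 2 (0.176), where its log2 fold change was 0.24. That of HOT1 ended without treated mutant replicate 1 (0.131), treated replicate 2 (0.0534) or untreated replicate 2 (0.101), and with DESeq2 (0.0605).

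Whether the 2 strains responded differently was tested as the mutant's log2 fold change minus that of WT, over the 8 libraries of the treatment tables. With limma 0 of the 10 genes passed, where 2.59% of all transcripts did, and with edgeR and DESeq2 also 0 passed; 1 gene, SHO1, had an unadjusted p under 0.05. SHO1 differed by -0.11 in the mutant and by -0.50 in WT, a difference of 0.39 ± 0.13 (95% interval 0.084 to 0.69, adjusted p = 0.24). HOG1, called in the mutant only, differed between the responses by -0.24 ± 0.14 (95% interval -0.55 to 0.062, adjusted p = 0.477), so its response is not shown to differ between strains. PTP2 and HOT1 differed by 0.11 ± 0.32 and -0.037 ± 0.21, with log2 fold changes above 0 in both strains. The kinases SSK2 and PBS2 differed by -0.34 ± 0.15 (adjusted p = 0.382) and -0.34 ± 0.17 (adjusted p = 0.424). Without each of the 8 libraries in turn, 0 of the 10 genes passed.

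**Figure D2:**
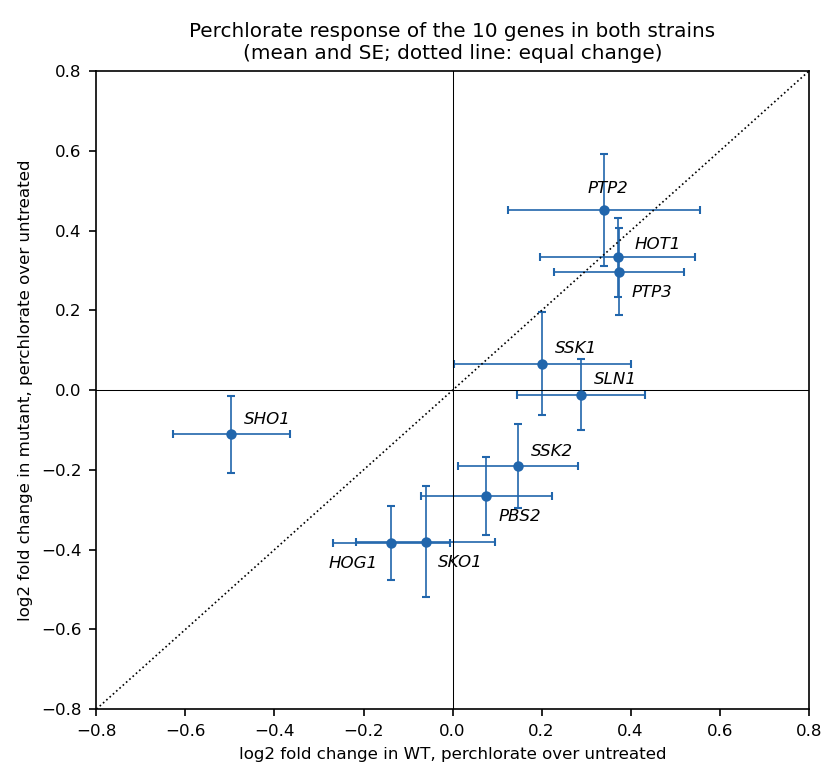
Log2 fold change with perchlorate in the mutant (vertical axis) against that in WT (horizontal axis) for the 10 genes, with bars for the SE from limma, 2 libraries per group. PTP2, PTP3 and HOT1 lie at 0.30 to 0.45 in the mutant and at 0.34 to 0.37 in WT, and SHO1 lies at -0.11 in the mutant and -0.50 in WT. The mutant's change minus that of WT was 0.39 for SHO1. It was -0.34 for PBS2, -0.34 for SSK2, -0.32 for SKO1 and -0.30 for SLN1, and none of these differences passed.

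Between untreated strains 1 of the 10 genes differed, where 22.5% of all transcripts were called. SHO1 had 1133 and 1209 normalized reads in the untreated mutant libraries, against 1585 and 1542 in the untreated WT libraries, a log2 fold change of -0.42 ± 0.11 (1.335-fold lower in the mutant, limma adjusted p = 0.0341). Both mutant libraries lay below both WT libraries. This comparison and that of perchlorate in WT share the 2 untreated WT libraries, which hold the highest levels of SHO1 in the series, so the SHO1 values of the 2 comparisons are not independent.

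The other sensor and relay genes differed without passing: SSK1 had 1258 and 953 normalized reads in the untreated mutant libraries, against 965 and 633 in the untreated WT libraries (0.49 ± 0.23, adjusted p = 0.184), and the groups overlapped. The core kinases were close between strains, with log2 fold changes of -0.019 ± 0.11 for SSK2, -0.013 ± 0.12 for PBS2 and 0.073 ± 0.11 for HOG1, and 95% intervals of -0.28 to 0.24, -0.30 to 0.27 and -0.18 to 0.33. The intervals therefore exclude a 2-fold difference in any of the 3. The transcription factors SKO1 (0.34 ± 0.15, adjusted p = 0.166) and HOT1 (0.35 ± 0.18, adjusted p = 0.208) had separate groups with the mutant higher, but did not pass. The groups did not overlap for 3 of the 10 genes, against 63.2% of all transcripts, and the median size of the change was 0.15, against 0.25. The call of SHO1 ended without untreated mutant replicate 1 (adjusted p = 0.345) and replicate 2 (0.176), and 2 of the 10 genes were called without untreated WT replicate 1 or without replicate 2.

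Between strains grown in perchlorate 3 of the 10 genes differed, where 31.9% of all transcripts were called, a share close to that of the 10. SSK1, the response regulator, had 1293 and 1246 normalized reads in the perchlorate-treated mutant libraries, against 1079.6 and 943 in the perchlorate-treated WT libraries, a log2 fold change of 0.33 ± 0.10 (1.26-fold higher, limma adjusted p = 0.0388). SSK2, the kinase that Ssk1 activates, had 1062 and 903 normalized reads in the perchlorate-treated mutant libraries, against 1302 and 1244 in the perchlorate-treated WT libraries (-0.38 ± 0.11, 1.30-fold lower, adjusted p = 0.028). PBS2 had 1052 and 1012 normalized reads in the perchlorate-treated mutant libraries, against 1458 and 1227 in the perchlorate-treated WT libraries (-0.37 ± 0.11, 1.30-fold lower, adjusted p = 0.0302). All 3 had separate groups.

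HOG1 had 3151 and 3122 normalized reads in the perchlorate-treated mutant libraries, against 3608 and 3559 in the perchlorate-treated WT libraries (-0.19 ± 0.089, adjusted p = 0.132), and SLN1 differed by -0.20 ± 0.089 (adjusted p = 0.115). Both had separate groups with the mutant lower and missed the limit. HOT1 had 828 and 781 normalized reads in the perchlorate-treated mutant libraries, against 623 and 693 in the perchlorate-treated WT libraries (0.29 ± 0.10, adjusted p = 0.0624), and passed with another scaling (TMM, adjusted p = 0.0484) and with edgeR (0.0452). SHO1, which differed between untreated strains, differed here by -0.051 ± 0.095 with overlapping groups, and PTP2, PTP3 and SKO1 differed by -0.093 ± 0.10, -0.11 ± 0.12 and 0.0035 ± 0.13.

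The groups did not overlap for 6 of the 10 genes, against 69.6% of all transcripts. The calls depended on single libraries. That of SSK1 ended without treated WT replicate 2 (adjusted p = 0.185) or either treated mutant library (0.16 without replicate 1 and 0.0873 without replicate 2), and with DESeq2 (0.0572). That of SSK2 ended without either treated WT library (0.105 without replicate 1 and 0.0626 without replicate 2) and without treated mutant replicate 2 (0.235). That of PBS2 ended without treated WT replicate 1 (0.161) and treated mutant replicate 2 (0.098). Of the 10 genes, 1 was called without treated WT replicate 1, 1 without treated WT replicate 2 and 0 without treated mutant replicate 2.

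In WT cells recovering from the shock wave 3 of the 10 genes changed, where 35.4% of all transcripts were called: SHO1 and PTP3 were higher and SKO1 was lower. SHO1 had 1460.4 and 1550.1 normalized reads in the shocked WT libraries, against 1197 and 1002 in the unshocked WT libraries, a log2 fold change of 0.46 ± 0.11 (1.37-fold higher, limma adjusted p = 0.0218). PTP3 had 563 and 757 normalized reads in the shocked WT libraries, against 363 and 486 in the unshocked WT libraries (0.63 ± 0.19, 1.55-fold higher, adjusted p = 0.0458). SKO1 had 1128 and 1107 normalized reads in the shocked WT libraries, against 1463 and 1338 in the unshocked WT libraries (-0.32 ± 0.087, 1.25-fold lower, adjusted p = 0.0315). All 3 had separate groups, and the libraries of PTP3 were the most widely spread.

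SLN1 had 2154 and 2184 normalized reads in the shocked WT libraries, against 1895 and 1708 in the unshocked WT libraries (0.27 ± 0.088, adjusted p = 0.0555), just short of the limit. The kinases all had lower values in shocked cells without passing: HOG1 had 3377 and 3028 normalized reads in the shocked WT libraries, against 3856 and 3623 in the unshocked WT libraries (-0.22 ± 0.093, adjusted p = 0.106), PBS2 differed by -0.18 ± 0.079 (adjusted p = 0.124) and SSK2 by -0.16 ± 0.082 (adjusted p = 0.172). PTP2 differed by -0.15 ± 0.093, SSK1 by -0.16 ± 0.11 and HOT1 by 0.18 ± 0.10. The phosphatases thus had estimates of opposite sign, which were not tested against each other.

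The groups did not overlap for 9 of the 10 genes, all but SSK1, against 73.5% of all transcripts, and the median log2 fold change was -0.16, against 0.0037. With shocked replicate 2, unshocked replicate 1 or unshocked replicate 2 left out in turn, 0 of the 10 genes were called. The adjusted p was then 0.0507, 0.0547 and 0.142 for SHO1, 0.129, 0.273 and 0.0933 for PTP3, and 0.0707, 0.198 and 0.103 for SKO1. The call of PTP3 also ended with TMM scaling (0.059) and with edgeR (0.055).

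In the authors' deposited table for each comparison, 0 of the 10 genes passed the authors' limits of 0.5 in log2 fold change and 0.01 in q. In the authors' deposited table for shock, PTP3 passed the limits of 0.5 in log2 fold change and 0.05 in p. The number of the 10 with a q under 0.05 in the authors' deposited tables was 1 for perchlorate in WT, 2 for perchlorate in the mutant, 1 between untreated strains, 2 between strains in perchlorate and 3 for shock. The share of all transcripts past these limits was not counted, so whether these numbers are few or many is not known.

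Levels were set side by side over all 12 libraries as RPKM, recovered reads scaled to the coding length of the gene and the total of the library, since the authors' tables were scaled separately. These levels are a description, and untreated and unshocked WT were not compared by a test. HOG1 was the most abundant of the 10 in every group, at 165 ± 7.24 RPKM in the perchlorate-treated mutant, 202 ± 11.5 in the untreated mutant, 169.9 ± 10.4 in perchlorate-treated WT, 172 ± 16.0 in untreated WT, 142 ± 7.43 in shocked WT and 169 ± 0.393 in unshocked WT (SD, n = 2 each). The untreated mutant was highest and shocked WT lowest, outside the range of the other groups, whose libraries lay between 160.3 and 183 RPKM and overlapped. SHO1 was second in every group, at 75.0 ± 1.44 RPKM in the perchlorate-treated mutant, 76.0 ± 4.47 in the untreated mutant, 69.8 ± 2.37 in perchlorate-treated WT, 90.3 ± 4.29 in untreated WT, 79.4 ± 5.32 in shocked WT and 58.8 ± 4.64 in unshocked WT. Its highest libraries were those of untreated WT and its lowest those of unshocked WT.

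The other genes lay lower. PTP3 varied most, by 4.66-fold in library-scaled reads between unshocked WT replicate 1 and perchlorate-treated mutant replicate 1. It stood at 31.3 ± 4.83 RPKM in the perchlorate-treated mutant, 23.8 ± 1.02 in the untreated mutant, 30.5 ± 4.94 in perchlorate-treated WT, 21.4 ± 1.94 in untreated WT, 13.8 ± 3.20 in shocked WT and 9.05 ± 2.27 in unshocked WT. Its levels in both shocked and both unshocked libraries lay below those of the other 8 libraries, and in unshocked WT it was the least abundant of the 10. PTP2 stood at 38.5 ± 4.30 RPKM in the perchlorate-treated mutant, 26.5 ± 5.25 in the untreated mutant, 36.9 ± 4.45 in perchlorate-treated WT, 27.6 ± 10.5 in untreated WT, 18.7 ± 1.65 in shocked WT and 21.2 ± 1.29 in unshocked WT, and was lower in both shock groups than in every library grown with perchlorate. HOT1 stood at 25.7 ± 2.02 RPKM in the perchlorate-treated mutant, 19.1 ± 0.623 in the untreated mutant, 18.9 ± 0.457 in perchlorate-treated WT, 13.5 ± 2.65 in untreated WT, 17.1 ± 1.12 in shocked WT and 15.3 ± 1.24 in unshocked WT, with the 2 highest libraries in the perchlorate-treated mutant. SSK2, with the longest coding sequence, lay between 12.8 and 17.7 RPKM, a range of 1.38-fold, and PBS2 ranged by 1.39-fold between 33.7 and 46.7 RPKM. SLN1 ranged from 25.2 to 38.1 RPKM, SSK1 from 18.5 to 42.8 and SKO1 from 29.2 to 51.4.

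**Figure D3:**
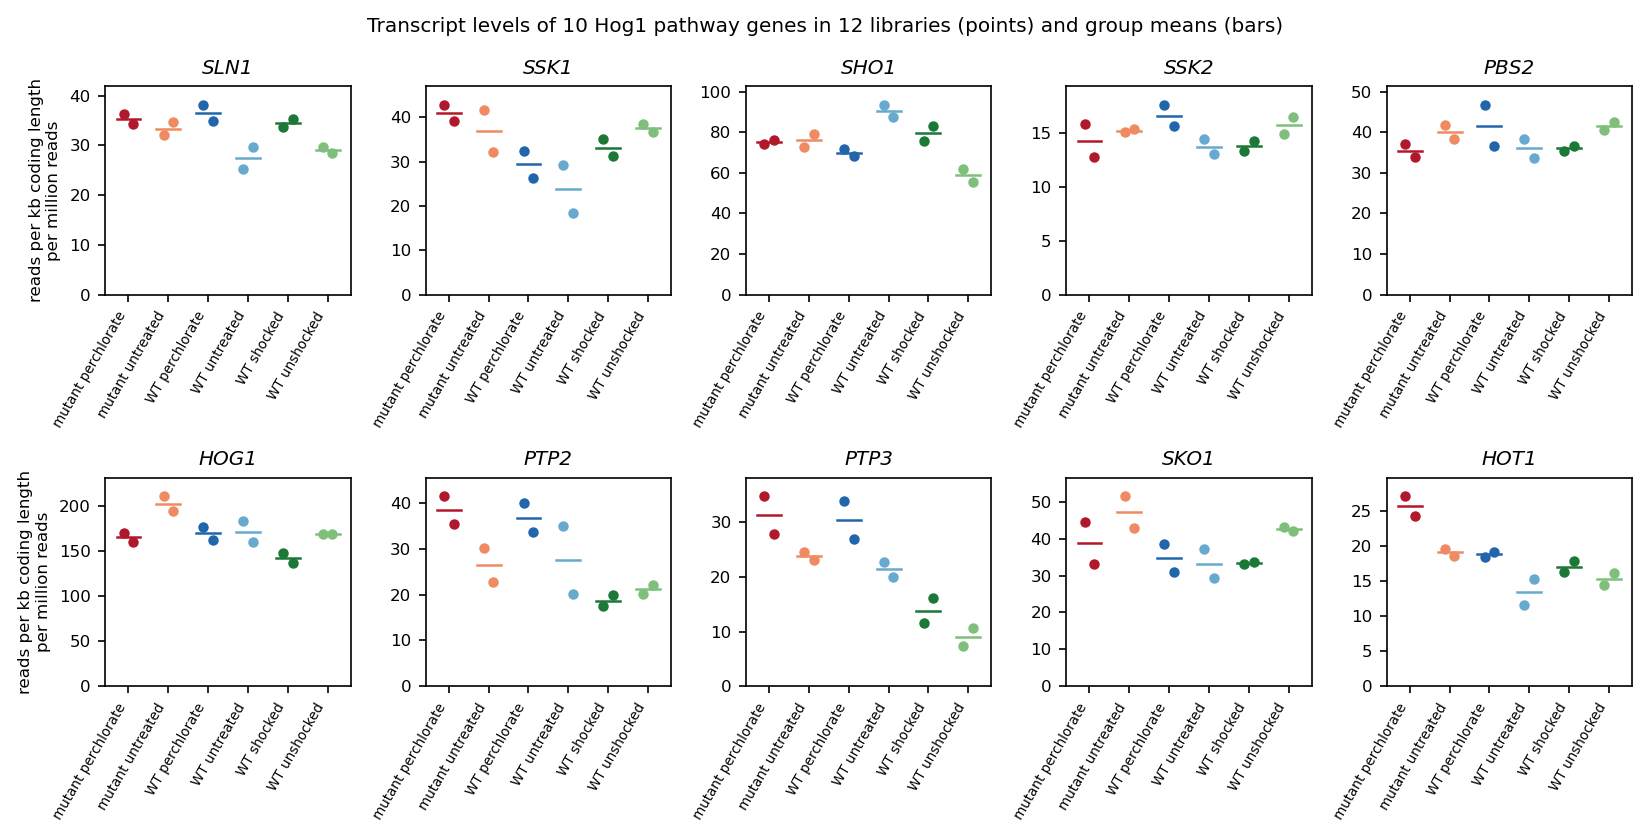
RPKM (vertical axis, from 0, each panel with its own scale) of the 10 genes in the 12 libraries. Points are single libraries, bars the means of the 2 libraries of a group. HOG1 lies between 137 and 211 RPKM, and PTP3 between 7.45 and 34.7 with the 4 shock experiment libraries lowest.

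Over the 12 libraries, the transcripts whose log2 library-scaled reads were most like those of HOG1 among 5469 with a mean of at least 50 reads were UBC4, a ubiquitin-conjugating enzyme gene (Pearson r = 0.92), RGT1, a glucose-responsive transcription factor gene (0.92), and PTC3, a type 2C protein phosphatase gene (0.92). PTC3 is 1 of the 25 other components of the pathway described below. Among the other 9 of the 10 genes, SKO1 came nearest, at rank 70 (0.72), followed by PBS2 (0.52) and SSK2 (0.42). SLN1 (-0.19), SHO1 (-0.066) and HOT1 (-0.0023) were below 0. The libraries share their groups and strains, so these values describe this series only.

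Of 25 other components of the pathway, 3 were called with perchlorate in WT, where 26.5% of all transcripts were called. STE11, the MAP kinase kinase kinase of the Sho1 branch, was higher, with 646 and 642 normalized reads in the perchlorate-treated WT libraries, against 461 and 412 in the untreated WT libraries (0.56 ± 0.14, adjusted p = 0.0187). OPY2, the membrane anchor of that branch, was also higher (0.48 ± 0.14, adjusted p = 0.0314), and PTC2, a type 2C phosphatase gene, was lower (-0.41 ± 0.13, adjusted p = 0.048). While SHO1 was lower in these cells, these 2 genes of its branch were higher. The median of the 25 was 0.0095 here, -0.051 for perchlorate in the mutant, -0.0084 between untreated strains, -0.034 between strains in perchlorate and -0.025 after shock, and the medians over all transcripts lay between -0.0079 and 0.0099. Without treated WT replicates 1 and 2 the count was 0 and 1, with adjusted p for STE11 of 0.171 and 0.123, for OPY2 of 0.272 and 0.0841 and for PTC2 of 0.156 and 0.293. Without untreated WT replicate 1 it was 9 and PTC2 did not pass (0.0674), and OPY2 did not pass without untreated WT replicate 2 (0.0623). PTC2 was also lost with TMM scaling (0.0526) and edgeR (0.0535).

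With perchlorate in the mutant 7 of the 25 were called, 2 higher and 5 lower, where 33.7% of all transcripts were called. RCK1, a kinase gene related to the Hog1 substrate gene RCK2, was higher (111 and 80.1 normalized reads in the perchlorate-treated mutant libraries, against 35.0 and 32.7 in the untreated mutant libraries; 1.45 ± 0.23, adjusted p = 0.00185), as was OPY2 (0.49 ± 0.088, adjusted p = 0.00335). MSN4, which encodes a stress transcription factor, was lower (-0.69 ± 0.14, adjusted p = 0.00671), and so was STE20, a kinase gene of the Sho1 branch (-0.42 ± 0.094, adjusted p = 0.00895). Without treated mutant replicate 1 the count was 4. The 4 named genes passed without each library in turn.

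Between untreated strains 3 of the 25 were called. Of all transcripts, 22.5% were called between untreated strains and 31.9% between strains in perchlorate. RCK1 was lower in the mutant (31.9 and 29.7 normalized reads in the untreated mutant libraries, against 224 and 144 in the untreated WT libraries; -2.51 ± 0.26, adjusted p = 0.00155), SMP1, the gene of a transcription factor that Hog1 phosphorylates, was higher (0.90 ± 0.21, adjusted p = 0.0252), and HKR1, a mucin-like sensor gene of the Sho1 branch, was lower (-0.44 ± 0.11, adjusted p = 0.035). The call of HKR1 ended without each library in turn, with adjusted p between 0.0502 (without untreated WT replicate 1) and 0.335 (without untreated mutant replicate 2). In perchlorate 6 of the 25 were called: RCK1 (-1.81 ± 0.22, adjusted p = 3.74e-04) and FPS1, the glycerol channel gene (-0.43 ± 0.11, adjusted p = 0.0141), were lower in the mutant, along with HKR1 (-0.40 ± 0.10) and RGC1 (-0.32 ± 0.10), which the naming rule leaves out and which were picked once their values were known, and SMP1 (0.49 ± 0.12, adjusted p = 0.0126) and NBP2, an adaptor gene for the phosphatase Ptc1 (0.46 ± 0.12, adjusted p = 0.0177), were higher. Without treated WT replicate 1 the count was 1, with SMP1 at 0.0656, NBP2 at 0.0918 and FPS1 at 0.0826; without treated mutant replicate 2 it was 3, with SMP1 at 0.0522.

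After shock 10 of the 25 were called, 6 higher and 4 lower, where 35.4% of all transcripts were called. SSK22, the paralog of SSK2, was higher (407 and 493 normalized reads in the shocked WT libraries, against 278 and 239 in the unshocked WT libraries; 0.80 ± 0.14, adjusted p = 0.00851), as was AHK1, a scaffold gene of the Sho1 branch (0.46 ± 0.084, adjusted p = 0.00845). RCK2 (-0.59 ± 0.10, adjusted p = 0.00795) and RGC1, a regulator gene of the Fps1 channel (-0.50 ± 0.10, adjusted p = 0.0134), were lower. SSK2 itself differed by -0.16 ± 0.082 in the same libraries. Without shocked replicate 2 the count was 5, without unshocked replicate 1 it was 1 and without unshocked replicate 2 it was 0; in those last fits the adjusted p of SSK22 was 0.0593 and 0.0917, of AHK1 0.0905 and 0.0768, of RCK2 0.0886 and 0.071, and of RGC1 0.122 and 0.091.

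Against these small changes in the signaling genes stand 13 target genes of Hog1-controlled transcription. This list was chosen with earlier results of these data known, so the contrast is a description. Of all transcripts tested, 33.7% were called with perchlorate in the mutant, 26.5% with perchlorate in WT and 35.4% after shock. With perchlorate 11 of 13 were called in the mutant and 9 of 13 in WT, all higher, with a median log2 fold change of 1.54 in the mutant and 1.68 in WT, where the 10 signaling genes had medians of -0.061 in the mutant and 0.17 in WT. Several of these genes also respond to the general stress factors Msn2 and Msn4. STL1 had 14195 and 14792 normalized reads in the perchlorate-treated mutant libraries, against 366 and 314 in the untreated mutant libraries (5.41 ± 0.10), and 753 and 749.8 normalized reads in the perchlorate-treated WT libraries, against 10.1 and 12.5 in the untreated WT libraries (5.94 ± 0.21). ALD3, an aldehyde dehydrogenase gene, differed by 3.12 ± 0.16 in the mutant and 4.11 ± 0.23 in WT, and all 4 of these calls passed without each library in turn. After shock 7 of 13 were called, all lower, with a median of the 13 of -0.60, among them GPD1, the gene of the first enzyme of glycerol synthesis (6774 and 6285 normalized reads in the shocked WT libraries, against 17875 and 15450.1 in the unshocked WT libraries; -1.35 ± 0.11, adjusted p = 8.55e-04). The count after shock was 4 without unshocked replicate 1 and 3 without unshocked replicate 2.

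Between untreated strains 5 of the 13 targets were called, 4 higher in the mutant and 1, GRE2, lower (-0.62 ± 0.10, adjusted p = 0.00797, and 0.0608 without untreated mutant replicate 1). STL1, the gene of a glycerol importer, had 333 and 285 normalized reads in the untreated mutant libraries, against 9.99 and 12.5 in the untreated WT libraries (4.67 ± 0.23, 25.4-fold higher, adjusted p = 7.72e-05). CTT1, the cytosolic catalase gene, was 4.28-fold higher (2.10 ± 0.36, adjusted p = 0.00994) and GPD1 1.96-fold higher (0.97 ± 0.14, adjusted p = 0.00503). In perchlorate 5 were called, all higher in the mutant. Of all transcripts, 22.5% were called between untreated strains and 31.9% between strains in perchlorate. STL1 was 17.4-fold higher there (4.12 ± 0.090, adjusted p = 3.61e-08), CTT1 1.96-fold (0.97 ± 0.14, adjusted p = 9.88e-04) and GPD1 1.63-fold (0.71 ± 0.13, adjusted p = 0.00364, and 0.0548 without treated mutant replicate 2). The differences were thus uneven over the list. The median of the 13 was 0.36 between untreated strains and 0.054 in perchlorate. HOT1 and SKO1, whose proteins bind such genes, differed by 0.35 ± 0.18 and 0.34 ± 0.15 between untreated strains and by 0.29 ± 0.10 and 0.0035 ± 0.13 in perchlorate, without passing in either. For the difference between the strains' responses to perchlorate, 6 of the 13 targets had an unadjusted p under 0.05 (limma). The share of all transcripts at that p was not counted. The median size of the difference was 0.40, against 0.18 over all transcripts. After adjustment the difference passed for 1 of the 13, ENA1, a sodium pump gene (0.92 ± 0.16, adjusted p = 0.0195), where 2.59% of all transcripts passed. Reads of ENA1 cannot be assigned with certainty because ENA2 and ENA5 are near-identical to it. The count was 0 without either treated WT library, without either treated mutant library (adjusted p from 0.0597 to 0.106) or without untreated mutant replicate 2 (0.0832), and 4 without untreated WT replicate 1. Of the 25 other components and of 10 genes of other MAP kinase modules 0 passed this test with limma, edgeR or DESeq2, with 1 and 3 at an unadjusted p under 0.05; without untreated WT replicate 2, 1 of the 10 passed.

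**Figure D4:**
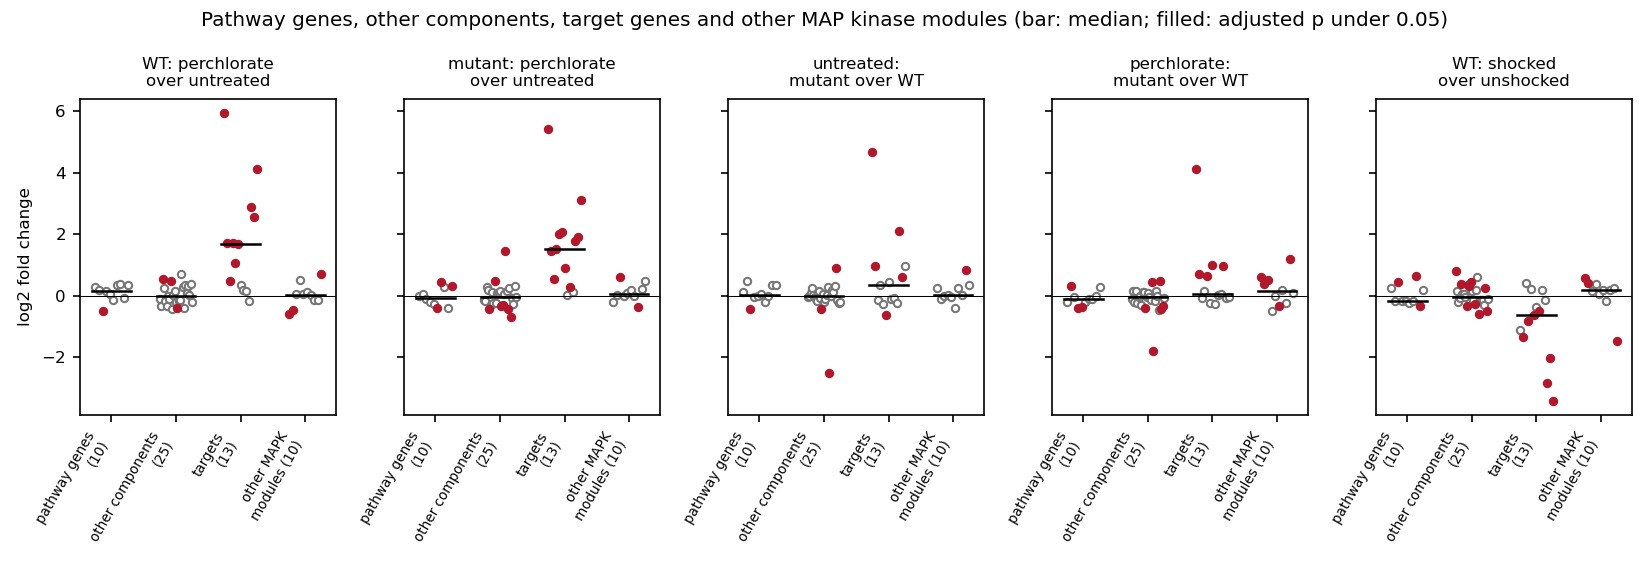
Log2 fold change (vertical axis) of the 10 pathway genes, 25 other components, 13 targets and 10 genes of other MAP kinase modules in 5 comparisons (panels). Each point is a gene from the limma fit, filled where the adjusted p was under 0.05, and the bar is the median of the list: with perchlorate it stands at 1.54 in the mutant and 1.68 in WT for the targets, and at -0.061 in the mutant and 0.17 in WT for the 10 pathway genes.

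Of 10 genes of other MAP kinase modules, 2 were called with perchlorate in the mutant (1 higher, 1 lower) and 3 in WT (1 higher, 2 lower). Between untreated strains 1 was called (higher in the mutant), between strains in perchlorate 5 (4 higher, 1 lower) and after shock 3 (2 higher, 1 lower), and the median of the 10 lay between 0.027 and 0.18 over the 5 comparisons. Of all transcripts, 33.7% were called with perchlorate in the mutant and 26.5% in WT. The share was 22.5% between untreated strains, 31.9% between strains in perchlorate and 35.4% after shock. The mating and filamentation MAP kinase genes FUS3 and KSS1 were lower with perchlorate in WT (-0.60 ± 0.15 and -0.47 ± 0.14, adjusted p = 0.0197 and 0.0326) and higher after shock (0.58 ± 0.15 and 0.43 ± 0.10, adjusted p = 0.0257 and 0.0214). The 5 a-cell markers are mating genes. In the same libraries they differed by -2.22 to -1.40 with perchlorate in WT and by 0.23 to 0.79 after shock. All 5 were called with perchlorate in WT, and all but MFA2 (limma adjusted p = 0.135) after shock. Their groups were separate for all 5 in both, against 67.9% of all transcripts with perchlorate in WT and 73.5% after shock. The part of these markers in the values of FUS3 and KSS1 was not tested. In the same comparisons HOG1, a relative of both kinases, differed by -0.14 ± 0.13 and -0.22 ± 0.093 without passing. SLT2, the cell wall integrity MAP kinase gene, was higher with perchlorate in the mutant (0.61 ± 0.089, adjusted p = 0.00107), where HOG1 was lower. The count in WT was 0 without either treated library (adjusted p for FUS3 0.138 and 0.113, for KSS1 0.22 and 0.203), and after shock it was 0 without either unshocked library (FUS3 0.182 and 0.079, KSS1 0.148 and 0.0746). FUS3 also missed the limit after shock without shocked replicate 2 (0.0664). Between strains the count was 2 without untreated WT replicate 2 in untreated cells, and 3 without treated WT replicate 1, treated WT replicate 2 or treated mutant replicate 1 in perchlorate.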

How the data were processed

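RNA was extracted with hot phenol from yeast and sequenced as 12 libraries made with a directional kit, per the labels' protocols. Reads were trimmed with Trim Galore, checked with FastQC and aligned with HISAT2, per the submitters' processing notes. Neither the read counter nor the strand setting nor the build is given in the sources used here. For each of 5 comparisons the authors deposited normalized counts, a signal equal to reads divided by the library's DESeq2 size factor in that table. The authors also deposited log2 fold changes with standard errors, and p-values and q-values, from DESeq2 1.34.0, per the file headers.

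Division by the value of 1 read gave back whole reads (100.0% whole within 0.01 reads), for levels and for count tests as alternatives. Groups were taken from the titles. Transcripts with a mean of at least 10 were tested within each table on log2 of the value plus 1 with limma 3.58.1 (eBayes with trend, R 4.3.3) and adjusted over all transcripts tested, 5664 to 5701. The difference between the strains' responses was tested over 8 libraries, each strain in its own table's values. Intervals are 95% and from the same fits. Alternatives were a pseudocount of 5, no filter, TMM scaling, edgeR 4.0.16, DESeq2 1.42.0, a replicate block and leaving out each library.

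The 10 genes, the other lists and the rule for naming genes were chosen with earlier results of these data known. The rule named all 10 genes, EDC3, LSM4, and from each other list up to 4 called genes with the largest change (or the gene with the smallest p), of which the text gives those nearest to the pathway. Near-identical copies were searched with BLAST+ 2.17.0 (minimum 95% identity and 50% of the length). Left out were 3 transcripts that the comparison sheets do not list, and names came from RefSeq R64.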

Additional observations from a re-analysis of the deposited data

Results flagged for a closer look

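Of the pathway genes, SSK2, the kinase gene below SSK1, is listed because the 2 strains differed in opposite directions with perchlorate: it had 1055 and 899.5 normalized reads in the perchlorate-treated mutant libraries, against 1110.3 and 1113 in the untreated mutant libraries, and 1177 and 1115 normalized reads in the perchlorate-treated WT libraries, against 1074 and 996 in the untreated WT libraries. Both mutant libraries lay below their controls and both WT libraries above theirs. The mutant's log2 fold change minus that of WT was -0.34 ± 0.15 (limma adjusted p = 0.382), so the difference did not pass its test.

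MSG5, a phosphatase gene of the mating and cell wall MAP kinase modules, is listed for the same reason: it had 1475 and 1434 normalized reads in the perchlorate-treated mutant libraries, against 1235 and 1241 in the untreated mutant libraries, and 596 and 560.0 normalized reads in the perchlorate-treated WT libraries, against 608 and 649.7 in the untreated WT libraries, a difference of 0.35 ± 0.13 (adjusted p = 0.289) that did not pass. ENA1, whose reads are uncertain because of its near-identical neighbours, is listed because its difference of 0.92 ± 0.16 passed the test (adjusted p = 0.0195): it had 1732 and 1837 normalized reads in the perchlorate-treated mutant libraries, against 485 and 409 in the untreated mutant libraries, and 1064 and 1012 normalized reads in the perchlorate-treated WT libraries, against 467 and 516 in the untreated WT libraries.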

How the results depend on the processing

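A pseudocount of 5, no filter, TMM scaling, edgeR and DESeq2 left the number of the 10 pathway genes called within 1.5 times in every comparison. TMM, edgeR and DESeq2 moved the median of all transcripts by at most 0.022 (log2). edgeR called 1511 transcripts for perchlorate in WT, 1936 transcripts for perchlorate in the mutant, 1298 transcripts for untreated strains, 1886 transcripts for strains in perchlorate, 1993 transcripts for shock and 146 for the difference between the strains' responses, where DESeq2 called 225 and limma 147. PBS2 between untreated strains was -0.013 with limma and 0.000113 with edgeR. With 1 library left out, the lone library is assumed to vary like the others, and the numbers of transcripts called and of the 10 pathway genes called were 511 to 2380 and 0 to 4 for perchlorate in WT, 1579 to 1948 and 2 to 3 for perchlorate in the mutant, 755 to 1553 and 0 to 2 for untreated strains, 1370 to 1490 and 0 to 2 for strains in perchlorate, 453 to 2081 and 0 to 3 for shock, and 75 to 387 and 0 to 0 for the difference between the strains' responses. The number of transcripts fell by over 1.5 times without treated WT replicate 1 (511) and 2 (838), untreated mutant replicate 1 (755), unshocked replicate 1 (693) and 2 (453), and, for the strains' responses, without 6 of the 8 libraries, and it was over 1.5 times higher for perchlorate in WT and for the strains' responses without untreated WT replicate 1. The log2 fold change of some pathway genes that were uncalled in the main fit passed through 0 in some of these fits. For perchlorate in WT, these were SSK1 -0.11 to 0.51, PBS2 -0.055 to 0.21, PTP2 -0.035 to 0.72, SKO1 -0.21 to 0.090. PTP2 was not small there: it was 0.34 in the main fit and 0.72 without untreated WT replicate 1. For perchlorate in the mutant, SLN1 -0.056 to 0.034, SSK1 -0.13 to 0.27. For untreated strains, SLN1 -0.030 to 0.27, SSK2 -0.066 to 0.027, PBS2 -0.085 to 0.058, PTP2 -0.55 to 0.18, PTP3 -0.078 to 0.049. For strains in perchlorate, SHO1 -0.11 to 0.0064, PTP3 -0.23 to 0.0077, SKO1 -0.17 to 0.18. For the difference between the strains' responses, SSK1 -0.45 to 0.18, PTP2 -0.26 to 0.49, PTP3 -0.20 to 0.042, HOT1 -0.26 to 0.19. The cause was not tested. The labels do not say that equal replicate numbers mark a shared batch, and 2 numbers per comparison are too few to show whether they pair the samples. Same-numbered libraries deviated together with a Pearson r of 0.12 to 0.51 across transcripts, the highest between untreated strains. With the replicate number as a block (replicate block), 2458 transcripts and 5 of the 10 were called for perchlorate in WT, 2409 and 6 in the mutant, 2482 and 4 between untreated strains, 3183 and 6 in perchlorate, 2536 and 4 for shock and 266 and 0 for the strains' responses. The pathway genes called with the block and not without it were SLN1, PTP2, PTP3 and HOT1 for perchlorate in WT, PBS2, PTP3 and SKO1 in the mutant, SSK1 (adjusted p = 8.23e-05), SKO1 (0.00542) and HOT1 (0.016) between untreated strains, SLN1, HOG1 and HOT1 between strains in perchlorate, and SLN1 for shock. With 345 to 4265 reads per gene and library, the spread between the 2 replicates and not counting error sets the precision.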
